A study of Mus musculus with 18 samples.

Results

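The hearts described here came from homozygous mutant rats of a line with abnormal splicing of titin, the elastic filament that spans the sarcomere. The comparison sets 3 mutant hearts at postnatal day 49 against 3 mutant hearts at postnatal day 20, which are 6 of the 18 arrays of the series. They were taken by their labelled genotype and age alone, and no measured value chose them. The series holds 6 groups of 3 arrays, namely homozygous mutant and wild-type rats at day 1, day 20 and day 49. The mutation arose in Sprague-Dawley rats, which were crossed with inbred Fisher 344 animals, and this mixed background is shared by both genotypes. Each array was hybridised with RNA from 1 animal. The design text calls the tissue ventricular and the titles call it whole heart. GEO's organism field names the mouse, but the descriptions, the strains and the array design are rat. Because 1 genotype entry is repeated on all samples, the descriptions were used to tell mutant from wild type. The sources used here give neither litter nor sex. The labels name no gene. Published work on rats with this titin splicing defect places the mutation in Rbm20, which encodes an RNA-binding splicing repressor of titin. The brighter Rbm20 probe set read 5.35, 5.45 and 5.67 at day 20 and 6.06, 5.58 and 5.97 at day 49 in mutant hearts, and 10.60, 10.31 and 10.89 at day 20 and 10.29, 10.54 and 9.74 at day 49 in wild-type hearts, on the log2 scale of these arrays. All mutant hearts lay below all wild-type hearts at both ages.

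Between weaning and young adulthood the rodent heart completes its switch from a fetal to an adult gene programme. Fetal isoforms of contractile proteins give way to adult ones, the imprinted growth genes of late gestation are silenced, deposition of new matrix slows, and resident immune cells accumulate. Energy supply shifts as well, because milk, which is rich in fat and raises ketone bodies, is replaced by a carbohydrate diet at weaning.

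All values are log2 levels after robust multi-array averaging (RMA), so a difference is a log2 ratio and a positive one means a higher level at day 49. Cardiomyocyte transcripts dominated both ages. The mean level of 19 cardiomyocyte markers lay between 12.62 and 12.69 on the day 20 arrays and between 12.48 and 12.56 on the day 49 arrays, against array medians of 5.42 to 5.50. The day 49 arrays differed from the others in their labelling controls. Bacillus dap control probe sets averaged 3.22 ± 0.01 (SD, n = 3) at day 20 and 6.43 ± 0.42 (SD, n = 3) at day 49 in the mutant, and 3.27 ± 0.06 and 6.23 ± 0.23 in the wild type. Arrays of day 1 read like those of day 20, at 3.24 in mutant and 3.23 in wild-type hearts. This signal was present on every day 49 array and on no other, and age and sample preparation cannot be told apart. Hybridization controls were 9.56 ± 0.09 at day 20 and spread from 8.42 to 9.90 at day 49 in the mutant, with arrays 1 and 2 lowest. The gap between the 3′ and 5′ Gapdh control probe sets, a sign of RNA quality, was 0.49 ± 0.15 at day 20 and 0.43 ± 0.05 at day 49. Xist, the X-inactivation transcript of females, was high on 1 of 3 mutant arrays at day 20 (array 2) and on 2 of 3 at day 49 (arrays 2 and 3). The wild type had the same numbers.

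**Figure D1:**
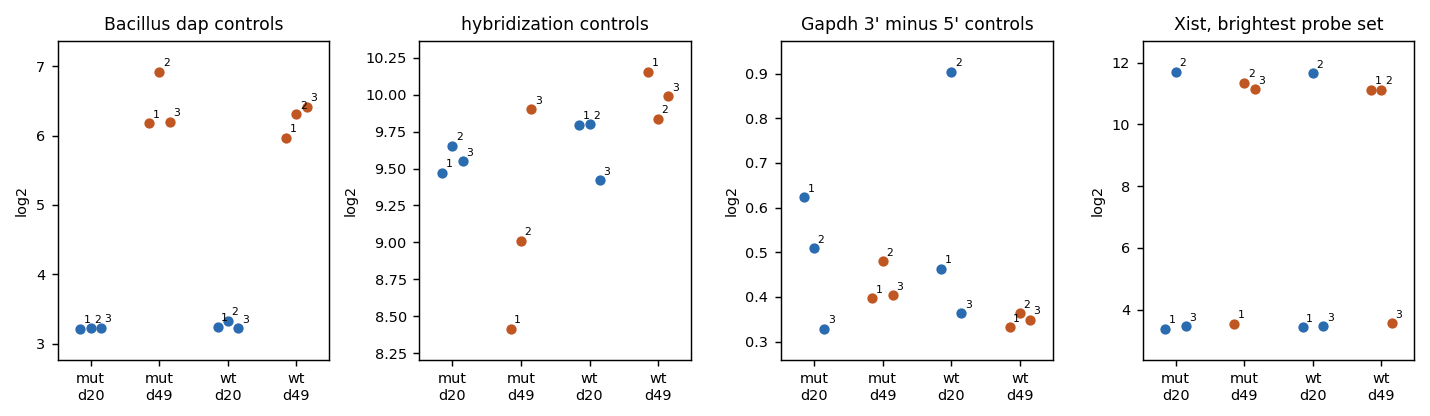
Each point is 1 array of day 20 (blue) or day 49 (orange), numbered by replicate, and every vertical axis is a log2 level or, for Gapdh, a difference of log2 levels. The dap controls sit between 3.21 and 3.33 on all day 20 arrays and between 5.97 and 6.92 on all day 49 arrays.

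The question asked of the 6 hearts was which transcripts changed between day 20 and day 49. Of 31042 probe sets tested with limma, 3151 passed an adjusted p of 0.05, which is 10.2% of all. Of these, 1218 were higher and 1933 lower at day 49. Most of the changes were modest. The median called rise was 0.52 and the median called fall was -0.53, while 132 rises and 160 falls exceeded 1 and 13 rises and 9 falls exceeded 2. The day 49 arrays lay wholly above or wholly below the day 20 arrays for 29.9% of all probe sets. Among called probe sets this held for 1197 of the rises and 1903 of the falls. The first principal component of the 6 arrays carried 50.2% of the variance and placed the 3 arrays of each age on opposite sides. Counts of calls leaned on single hearts: without day 20 array 3 they were 768 higher and 1106 lower, and without day 49 array 3 they were 911 and 1079. Without day 49 arrays 1 and 2, whose hybridization controls were lowest, 619 were higher and 1250 lower, and without the 3 high-Xist arrays 229 and 324; each of these refits keeps 1 day 49 heart. Counted by gene, with the brightest of its probe sets, 658 of 14217 genes rose (4.63%) and 1069 fell (7.52%), and the median difference over all genes was 0.01. Those 2 shares are the background for the gene groups that follow.

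**Figure D2:**
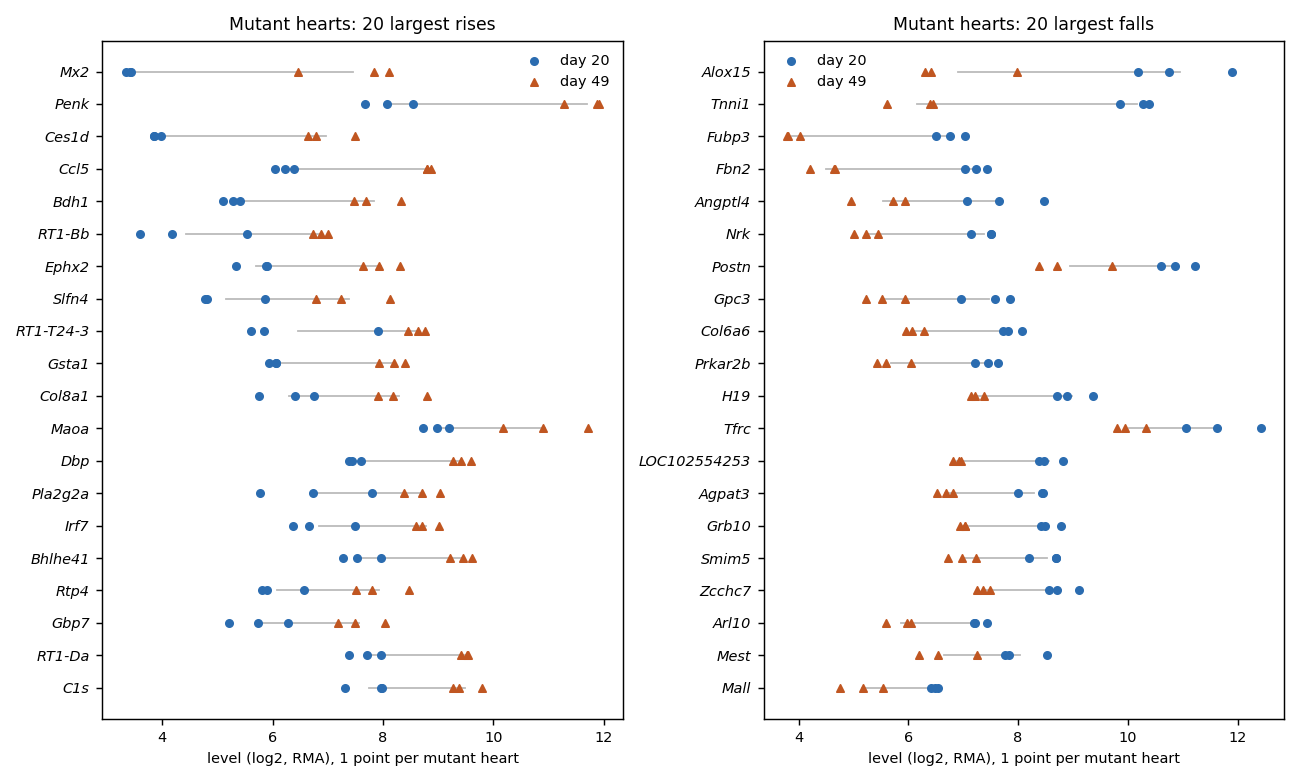
Level of the 20 named genes with the largest rises (left) and the largest falls (right) in mutant hearts, on a log2 axis, with 1 blue circle per day 20 heart, 1 orange triangle per day 49 heart and a grey line joining the means. Tnni1 drops from between 9.86 and 10.39 to between 5.60 and 6.45, and Mx2 rises from between 3.35 and 3.43 to between 6.46 and 8.10.

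Fetal forms of troponin I and of the essential light chain fell, while the fetal myosin heavy chain and the atrial regulatory light chain missed the threshold. Tnni1, the slow skeletal troponin I that the fetal heart uses before the adult cardiac isoform, read 10.27, 9.86 and 10.39 at day 20 and 5.60, 6.40 and 6.45 at day 49. The ages did not overlap, and the difference was -4.02 ± 0.20 (SE, adjusted p = 5.07e-09). A second Tnni1 probe set fell by 3.45. The mutant mean at day 1 was 12.98, so the level at day 49 was the lowest of the 3 ages. Myl4, the atrial and fetal essential light chain, read 10.85, 8.94 and 10.45 at day 20 and 6.63, 7.27 and 9.35 at day 49. The day 49 heart of array 3 lay above the day 20 heart of array 2, so the ages overlapped, and the difference was -2.33 ± 0.50 (SE, adjusted p = 0.00607). Myl7, the atrial regulatory light chain, had a difference of -2.49 ± 0.90 (SE, adjusted p = 0.0857), which did not pass. Of 17 atrial and conduction markers, which include both light chains, 4 fell and 1 rose, with a median of -0.33. Beside Myl4 the falls were the atrial potassium channel Kcna5 by 1.08, the transcription factor Tbx5 by 0.93 and Dkk3 by 0.53, and the rise was Tbx3 by 0.48; the calls of Kcna5 and Tbx3 were lost without 4 and 2 of the 6 arrays (adjusted p up to 0.212 and 0.087). Without day 49 arrays 1 and 2 that median was -0.06, with 3 falls. The part of atrial tissue in these values was not tested. Of 26 thick and thin filament genes, 2 fell (Tnni1 and Myl4) and 1 rose, Mybpc2, a myosin-binding protein of fast skeletal muscle, by 0.66. These shares were 7.69% and 3.85%, against 7.52% and 4.63% of all genes. Adult cardiac isoforms had small differences that did not pass, with Tnni3 at -0.11, Myl2 at -0.05, Tnnt2 at -0.03 and Mybpc3 at -0.14.

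Myh7, the slow beta-myosin heavy chain that predominates before birth in rodents, read 13.54, 13.49 and 13.61 at day 20 and 12.89, 12.63 and 13.28 at day 49. The ages did not overlap, but the difference of -0.61 ± 0.19 (SE, adjusted p = 0.0531) missed the threshold. Myh6, the adult alpha-myosin heavy chain, differed by -0.20 ± 0.12 (SE, adjusted p = 0.323). The stress-responsive genes Nppa, Nppb, Acta1 and Ankrd1 also showed no called change. Nppa, which encodes atrial natriuretic peptide, read 12.66, 12.72 and 13.23 at day 20 and 12.16, 12.18 and 13.75 at day 49, with the day 49 values on both sides of the day 20 values. The difference was -0.17 ± 0.33 (SE, adjusted p = 0.798). Nppb differed by -0.06 ± 0.24 (SE, adjusted p = 0.904), Acta1, the skeletal alpha-actin, by -0.25 ± 0.12 (SE, adjusted p = 0.215), and Ankrd1, a stretch-responsive ankyrin repeat protein, by 0.10 ± 0.14 (SE, adjusted p = 0.697). In the hypertrophy and wall stress group of 24 genes, 3 rose (12.5%) and 2 fell (8.33%), against 4.63% and 7.52% of all genes. The falls were the matrix proteins Postn by 1.96 and Ccn2 by 1.12, and the rises were Lgals3 by 0.57, Fos by 0.51 and Tgfb2 by 0.48. The calls of Ccn2, Fos and Tgfb2 were lost when single arrays were left out, with adjusted p up to 0.138, 0.105 and 0.0817.

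Ttn itself, measured by a probe set that does not separate its isoforms, read 13.39, 13.37 and 13.08 at day 20 and 12.84, 12.87 and 12.65 at day 49. All 3 day 49 hearts were lower, and the difference was -0.49 ± 0.10 (SE, adjusted p = 0.00318). Of 30 titin-associated, Z-disc and M-band genes, 2 rose and 2 fell (6.67% each, against 4.63% and 7.52% of all genes). The median was -0.02. Ankrd23, a partner of titin's N2A region, read 7.47, 7.93 and 7.47 at day 20 and 8.74, 9.17 and 9.34 at day 49, a difference of 1.46 ± 0.24 (SE, adjusted p = 7.47e-04). Telethonin (Tcap), which anchors the Z-disc end of titin, rose by 1.08. Pdlim3, a PDZ and LIM domain protein of the Z-disc, fell by 0.59. Of 18 transcripts known to be spliced by Rbm20, 6 fell and none rose, with a median of -0.24. They were Ttn, Pdlim3, Cacna1c, Lrrfip1, Lmo7 and Ryr2, and the calls of Ttn and Pdlim3 alone held when each array was left out in turn. There were 3 falls without day 20 array 2 or without day 49 array 3. Of 18 muscle splicing regulators, 5 fell and none rose, with a median of -0.33, and 3 fell without day 20 array 2 or 3 or day 49 array 1 or 3. Ptbp2 fell by 0.64, Rbfox2 by 0.54 and Celf1 by 0.53, and these held in every such refit, whereas Hnrnpa1 and Rbm24 did not (adjusted p up to 0.192 and 0.154). The wild-type medians of these groups were -0.24 and -0.33.

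Several growth genes of fetal life fell. Of 18 imprinted and fetal growth genes, 6 fell, none rose and the median was -0.29, with 1 fall without the high-Xist arrays. H19, an imprinted noncoding RNA, read 8.89, 8.71 and 9.37 at day 20 and 7.38, 7.15 and 7.21 at day 49, after a mean of 12.30 at day 1. The ages did not overlap and the difference was -1.74 ± 0.19 (SE, adjusted p = 2.82e-05). Igf2, the fetal insulin-like growth factor and neighbour of H19 in the imprinted cluster, read 10.02, 10.01 and 10.56 at day 20 and 9.34, 8.82 and 8.61 at day 49, a difference of -1.27 ± 0.20 (SE, adjusted p = 6.99e-04). Mest fell by 1.38, and Grb10, an imprinted adaptor that restrains insulin receptor signalling, by 1.56 on its more responsive probe set and by 0.73 on its brightest. The RNA-binding proteins Igf2bp2 and Igf2bp3 had lower called levels too, but these calls were lost without single arrays (adjusted p up to 0.0608 and 0.103). In the insulin-like growth factor and insulin pathway, 4 of 23 genes rose and 6 fell, with 1 rise without day 20 array 2 and 2 without day 49 array 1. The receptors were lower, with Insr falling by 0.82 and Igf1r by 0.65, as was the adaptor Irs2, by 1.04. The binding protein Igfbp3 fell by 0.90 while Igfbp5 rose by 0.77. Igf1, the postnatal ligand, rose by 0.48. The calls of Igf1r, Irs2, Igfbp5 and Igf1 did not hold without single arrays, with adjusted p up to 0.0598, 0.0502, 0.0676 and 0.193. Outside these lists, Gpc3, a glypican that restrains growth, fell by 1.90, and the kinase gene Nrk fell by 2.15. Each had a dimmer probe set that was not called, with differences of 0.15 and -0.20.

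A minority of matrix genes fell, among them some of the steepest falls of all. Postn, the matricellular protein periostin of remodelling connective tissue, read 10.86, 10.61 and 11.23 at day 20 and 8.38, 8.71 and 9.72 at day 49. The ages did not overlap, and the difference was -1.96 ± 0.23 (SE, adjusted p = 4.71e-05). Fbn2, the fibrillin of fetal microfibrils, read 7.43, 7.04 and 7.24 at day 20 and 4.20, 4.67 and 4.64 at day 49, a difference of -2.73 ± 0.19 (SE, adjusted p = 1.10e-07). Lox, which cross-links collagen and elastin, fell by 1.22. Of 34 other matrix and matricellular proteins 9 fell and 1 rose, and of 27 collagen processing and elastic fibre genes 4 fell and none rose, with medians of -0.11 and -0.06. When 1 array was left out these medians ranged from -0.22 to -0.0044 and from -0.19 to -0.012. Without day 49 arrays 1 and 2 the median of the first group was 0.04, with 3 rises and 4 falls, and without the high-Xist arrays it had no rise and 3 falls. The falls included the membrane metalloproteinase Mmp14, by 0.93, and the basement membrane proteins Lama2 by 0.56 and Nid2 by 0.54. Prelp, a small leucine-rich proteoglycan, rose by 1.03. The main fibrillar collagens had small differences that did not pass, with Col1a1 at 0.03, Col1a2 at -0.12 and Col3a1 at -0.07. One collagen rose. Col8a1, a short-chain network collagen, read 6.41, 5.76 and 6.75 at day 20 and 8.18, 7.90 and 8.79 at day 49, a difference of 1.98 ± 0.26 (SE, adjusted p = 1.18e-04), and it was the single rise among 22 collagens, of which 2 fell (9.09%, against 7.52% of all genes). Col5a1 and Col5a2 fell by 0.47 and 0.52, the first with adjusted p up to 0.104 when 1 array was left out. Col6a6, which was not on the list, fell by 1.77.

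Both ketone body enzymes on the fatty acid list rose, whereas most fatty acid and respiratory genes did not change by the test. Bdh1, the mitochondrial enzyme that oxidises 3-hydroxybutyrate, read 5.28, 5.41 and 5.11 at day 20 and 7.48, 8.32 and 7.69 at day 49. Its ages were far apart, with a difference of 2.56 ± 0.19 (SE, adjusted p = 3.30e-07), and a second probe set rose by 2.03. Oxct1, the enzyme that activates acetoacetate, rose by 1.20. Of 47 genes of fatty acid uptake and oxidation, 4 rose (8.51%) and 6 fell (12.8%), against 4.63% and 7.52% of all genes. The median was -0.13. There were 2 falls without day 20 array 2, 3 without day 49 array 3 and none without the high-Xist arrays. Etfb, an electron transfer flavoprotein subunit, fell by 0.58, a call that held in every refit without 1 array. Angptl4, a secreted inhibitor of lipoprotein lipase, read 7.07, 8.48 and 7.65 at day 20 and 5.72, 5.95 and 4.95 at day 49. All day 49 hearts were lower, by -2.19 ± 0.60 (SE, adjusted p = 0.0263), but the call was lost without 4 of the 6 arrays (adjusted p up to 0.112). Of 46 genes of the citric acid cycle and respiratory chain, 2 rose (4.35%, against 4.63% of all genes) and none fell. They were Cox7a1, the muscle isoform of a cytochrome oxidase subunit, by 1.25, and Ckmt2, the sarcomeric mitochondrial creatine kinase, by 0.90. Of 32 genes of glucose uptake and glycolysis 7 rose and 2 fell. The insulin-responsive transporter Slc2a4 rose by 0.64, hexokinase Hk2 by 0.88 and the pyruvate dehydrogenase phosphatase Pdp1 by 0.67, while the platelet-type phosphofructokinase Pfkp fell by 1.02. That count of rises was 3 without day 49 array 2 and 5 or 6 without any other single array. It was 1 without day 49 arrays 1 and 2, and no gene of the group was called higher without the high-Xist arrays.

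Several detoxifying enzymes rose. Of 39 antioxidant and xenobiotic enzymes 15 rose and 2 fell, with a median of 0.35, against 0.01 over all genes. Ces1d, a carboxylesterase, read 3.98, 3.86 and 3.86 at day 20 and 7.49, 6.78 and 6.65 at day 49, a difference of 3.07 ± 0.21 (SE, adjusted p = 1.10e-07). The day 20 values lay below the array medians. Maoa, the monoamine oxidase that degrades noradrenaline and serotonin, read 8.73, 8.97 and 9.21 at day 20 and 10.17, 10.91 and 11.71 at day 49, a difference of 1.96 ± 0.27 (SE, adjusted p = 1.87e-04). The glutathione transferases rose, Gsta1 by 2.16, Gstm2 by 1.37 and Gstm1 by 0.99, as did the glutathione peroxidase Gpx3, by 1.30, and the retinaldehyde dehydrogenase Aldh1a1, by 1.15. Ephx2, the soluble epoxide hydrolase, read 5.88, 5.89 and 5.34 at day 20 and 7.94, 8.31 and 7.63 at day 49, a difference of 2.26 ± 0.55 (SE, adjusted p = 0.0143) whose adjusted p was up to 0.0633 without day 20 array 3 or day 49 array 2. Without day 49 arrays 1 and 2, 9 members of the group were called higher. Without the arrays with high Xist, 8 were.

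Of all gene lists, interferon-stimulated genes had the highest share called higher. Of 38 measured, 28 rose and none fell, with a median of 0.88, and the mean level of the group lay between 6.26 and 6.67 on the day 20 arrays and between 7.25 and 7.50 on the day 49 arrays. Mx2, an antiviral dynamin-like GTPase, read 3.35, 3.41 and 3.43 at day 20 and 6.46, 7.83 and 8.10 at day 49. The day 20 values lay below the array medians, and the difference was 4.07 ± 0.57 (SE, adjusted p = 1.96e-04). A second Mx2 probe set differed by 0.14 and was not called. Irf7, the transcription factor that amplifies interferon production, read 7.50, 6.38 and 6.66 at day 20 and 8.59, 8.71 and 9.02 at day 49, a difference of 1.93 ± 0.26 (SE, adjusted p = 1.28e-04). Day 20 array 1 was the highest of its age for Irf7, and for Isg15, a ubiquitin-like interferon product, which read 7.79, 6.68 and 7.02 at day 20 and 8.17, 8.51 and 8.94 at day 49, a difference of 1.38 ± 0.28 (SE, adjusted p = 0.00355). Other rises included Rtp4 by 1.84, Igtp by 1.69 and Ifit3 by 1.36. Slfn4 and Gbp7, interferon-inducible genes outside the list, rose by 2.23 and 1.83. A second, dimmer Slfn4 probe set differed by 0.15 and was not called. Leaving out 1 array gave 24 to 33 rises, and 24 of the 28 genes held throughout. There were 25 rises without day 49 arrays 1 and 2 and 9 without the high-Xist arrays.

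Of 24 antigen presentation genes 13 rose and none fell, with a median of 0.61. All 24 had a higher mean at day 49, and 6 were called higher without the high-Xist arrays. RT1-Da, a class II chain of the rat major histocompatibility complex, read 7.72, 7.39 and 7.96 at day 20 and 9.53, 9.54 and 9.41 at day 49, a difference of 1.80 ± 0.22 (SE, adjusted p = 6.31e-05). RT1-Bb, another class II chain, ranged from 3.60 to 5.54 at day 20 and was at 6.73 or above in all day 49 hearts, a difference of 2.43 ± 0.40 (SE, adjusted p = 8.79e-04). A second RT1-Bb probe set differed by 0.14. B2m, the invariant class I light chain, rose by 1.01, the peptide transporter Tap1 by 1.06 and the immunoproteasome subunit Psmb9 by 1.45. The RT1 genes are a family of similar sequences, so the assignment of a probe set to 1 member is uncertain. RT1-T24-3 read 7.91, 5.85 and 5.60 at day 20 and 8.45, 8.63 and 8.76 at day 49. Day 20 array 1 stood apart from its group, and the call (difference 2.16 ± 0.53 (SE, adjusted p = 0.0145)) was lost without any of 3 arrays. The wild type differed by 0.31 for RT1-T24-3, though the genotypes' changes were not called different.

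Most macrophage markers rose, and some lymphocyte markers did. Of 24 macrophage and monocyte markers 15 rose, none fell and the median was 0.59, and the group's mean level lay between 6.23 and 6.41 at day 20 and between 6.87 and 7.20 at day 49. C1qa, a complement subunit made by tissue macrophages, read 7.45, 7.39 and 7.75 at day 20 and 8.60, 8.55 and 8.95 at day 49, a difference of 1.17 ± 0.15 (SE, adjusted p = 1.01e-04). Csf1r, the receptor that sustains macrophages, rose by 0.97, the signalling adaptors Tyrobp and Fcer1g by 1.33 and 1.30, and lysozyme Lyz2 by 1.07. Some other members of the list had smaller differences that did not pass, with Cx3cr1 at 0.01, Cd163 at 0.17, Lyve1 at 0.21 and Mrc1 at 0.23. In bulk tissue more cells of a type and more RNA per cell cannot be told apart. Of 24 lymphocyte, granulocyte and mast cell markers 7 rose and none fell, with a median of 0.22. This list was dim. Its mean level lay between 4.79 and 4.90 at day 20 and between 5.08 and 5.37 at day 49, below the array medians. A refit limited to probe sets above the array median held 4 of its members, of which 2 were called higher. Ptprc, the pan-leukocyte CD45, rose by 1.39, and the cytotoxic genes Gzmb and Nkg7 by 1.41 and 1.13, while the CD3 chains of the T cell receptor had differences that did not pass, with Cd3d at 0.14, Cd3e at 0.27 and Cd3g at 0.31. The T cell genes Lck, a kinase of receptor signalling, and Cd2, an adhesion receptor, rose by 0.50 and 0.40, calls lost without 2 and 4 of the 6 arrays (adjusted p up to 0.0712 and 0.129). The count of 7 was 4 without day 49 arrays 1 and 2 and 4 without the high-Xist arrays. Of 9 thymocyte markers 2 rose and 1 fell, with a median of 0.17. They were Cd1d1, which presents lipid antigens and is not limited to thymocytes, by 1.29, Lck, and the chromatin organiser Satb1, which fell by 0.65. Ccl5, a chemokine that attracts T cells and monocytes, read 6.39, 6.23 and 6.04 at day 20 and 8.87, 8.79 and 8.80 at day 49. The 3 day 49 hearts lay close together, all above the day 20 hearts, and the difference was 2.60 ± 0.16 (SE, adjusted p = 4.75e-08). Of 20 complement and acute phase genes 6 rose and none fell, with 1 rise without the high-Xist arrays. C1s, a protease of the classical pathway, rose by 1.73. Pla2g2a, a secreted phospholipase induced in inflammation, rose by 1.94 from day 20 values that ranged from 5.78 to 7.80. The part of immune cell number in the interferon and antigen presentation values was not tested. The macrophage count was 11 to 16 when 1 array was left out, 15 without day 49 arrays 1 and 2, and 7 without the high-Xist arrays.

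**Figure D3:**
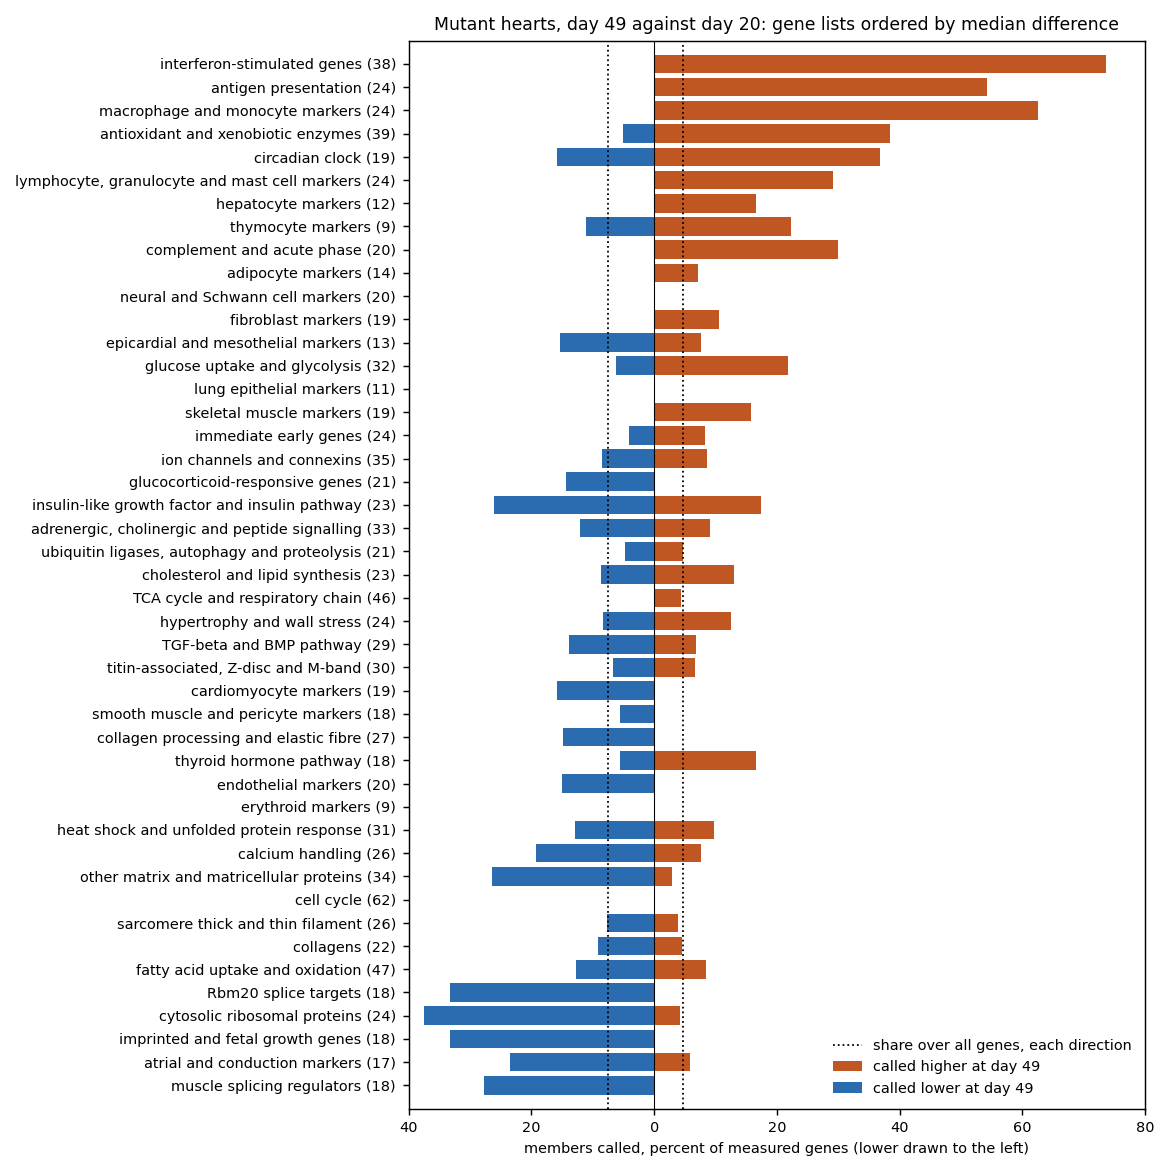
Percent of measured members called higher (orange, right) or lower (blue, left) at day 49 in mutant hearts for each gene list, with the number of genes in brackets and dotted lines at the shares over all genes, 4.63% higher and 7.52% lower. Interferon-stimulated genes, macrophage markers and antigen presentation have the longest bars to the right, and ribosomal proteins, imprinted genes and Rbm20 targets the longest to the left.

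Circadian clock genes changed in both directions. Of 19, 7 rose and 3 fell, with a median of 0.33. Without day 49 arrays 1 and 2 there were 4 rises and the median was -0.03, with the hybridization controls as a covariate 5 and 0.17, and without the high-Xist arrays 1 rise. Dbp, an output transcription factor driven directly by the clock, read 7.44, 7.38 and 7.60 at day 20 and 9.41, 9.60 and 9.26 at day 49, a difference of 1.95 ± 0.15 (SE, adjusted p = 3.65e-07). The transcriptional repressors Nr1d1, Bhlhe41 and Bhlhe40 rose by 1.50, 1.84 and 1.23. The activators were lower, with Clock falling by 0.95 and its paralogue Npas2 by 1.16, while Bmal1 had a difference of -0.48 that did not pass. The repressor Cry1 fell by 0.67, with adjusted p up to 0.192 when 1 array was left out. Per1, Per2 and Per3 had differences of 0.04, 0.32 and 0.00, none of which passed. The sources used here give no hour of tissue collection, so age and time of day cannot be told apart.

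Excitation and calcium genes changed in single members. Of 26 calcium handling genes 2 rose and 5 fell, with a median of -0.09, and 2 fell without day 20 array 2 and 3 without day 20 array 3, day 49 array 1 or day 49 array 3. The sodium-calcium exchanger Slc8a1 fell by 0.51, and the skeletal calsequestrin Casq1 rose by 0.90. The calls of Cacna1c, Cacna1h, Ryr2, Srl and Sypl2 were lost in at least 1 refit without an array, with adjusted p up to 0.0888, 0.0598, 0.0705, 0.0741 and 0.197. Atp2a2, the calcium pump of the sarcoplasmic reticulum, and its inhibitor Pln had differences of -0.03 and -0.04, which did not pass. Of 35 ion channels and connexins, 3 rose and 3 fell (8.57% each, against 4.63% and 7.52% of all genes). The sodium channel Scn1a fell by 1.13 and connexin 45 (Gjc1) by 0.65, while Clcn4 rose by 1.23 and the pacemaker channel Hcn2 by 0.45. Of 33 adrenergic, cholinergic and peptide signalling genes, 3 rose (9.09%) and 4 fell (12.1%), against 4.63% and 7.52% of all genes. Penk, the precursor of enkephalin opioid peptides, read 8.07, 7.67 and 8.54 at day 20 and 11.92, 11.88 and 11.28 at day 49, a difference of 3.60 ± 0.36 (SE, adjusted p = 1.12e-05). Its day 1 mean was 10.01, so the level was lower at day 20 than at either other age. The adenylyl cyclase Adcy6 fell by 0.74 and the G protein subunit Gnao1 rose by 0.92.

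Some ribosomal protein genes fell. Of 24 cytosolic ribosomal proteins 9 fell and 1 rose, with a median of -0.25, but leaving out 1 array left 3 to 5 falls. The pair Rpl3 and Rpl3l moved in opposite directions. Rpl3, the ubiquitous form, read 12.44, 12.27 and 12.43 at day 20 and 11.14, 11.07 and 11.37 at day 49, a difference of -1.19 ± 0.10 (SE, adjusted p = 1.54e-06). Rpl3l, its striated muscle paralogue, read 9.32, 9.77 and 9.01 at day 20 and 10.79, 10.60 and 10.18 at day 49, a difference of 1.16 ± 0.17 (SE, adjusted p = 3.83e-04), after a day 1 mean of 4.04. Of 31 heat shock and unfolded protein response genes 3 rose (9.68%) and 4 fell (12.9%), against 4.63% and 7.52% of all genes. Hspa5, the main chaperone of the endoplasmic reticulum, fell by 0.69. None of 62 cell cycle genes was called in either direction. Their median was -0.12, and Mki67, a marker of dividing cells, had a difference of -0.45 ± 0.19 (SE, adjusted p = 0.132). Leaving out 1 array gave 0 to 5 falls, with 5 without day 49 array 1.

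Markers of other tissues and cell types had between 0 and 3 calls per list. None of 9 erythroid, 20 neural and Schwann or 11 lung epithelial genes was called. The neural and lung lists averaged 5.02 to 5.29 and 4.36 to 4.56, below the array medians, so their lack of calls says little. Of 12 hepatocyte genes 2 were called higher (16.7%, against 4.63% of all genes), Alb by 0.48 and Ttr by 0.45. Both calls were lost in refits without 1 array (adjusted p up to 0.0842 and 0.118). This list too averaged below the array medians, between 4.53 and 4.92 over both ages. Skeletal muscle markers had 3 rises among 19 (15.8%, against 4.63% of all genes), Casq1, Mybpc2 and the fast myosin heavy chain Myh1, the last by 0.71 and with its call lost without 5 of the 6 arrays (adjusted p up to 0.142). Of 20 endothelial markers 3 fell (15%, against 7.52% of all genes), among them Cldn5, a tight junction protein, by 1.23. Of 19 fibroblast markers 2 rose (10.5%), and of 14 adipocyte markers 1 rose (7.14%), against 4.63% of all genes. Among 18 smooth muscle and pericyte markers 1 fell (5.56%, against 7.52% of all genes). Among 13 epicardial and mesothelial markers 1 rose (7.69%) and 2 fell (15.4%), against 4.63% and 7.52% of all genes. None of the epicardial, adipocyte or smooth muscle calls held in every refit without 1 array. On the endothelial and fibroblast lists 1 call each did. Of 4 Y-linked transcripts, Rps4y2 was called lower, by 0.73, a call lost without 5 of the 6 arrays (adjusted p up to 0.111). Eif2s3y had a difference of -1.92 ± 2.05 (SE, adjusted p = 0.609). More hearts had high Xist at day 49, and the part of sex in these values was not tested.

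Several of the steepest falls belonged to none of these groups. Alox15, a lipoxygenase that oxygenates arachidonic and linoleic acid, read 11.91, 10.18 and 10.75 at day 20 and 7.98, 6.31 and 6.42 at day 49, a difference of -4.04 ± 0.48 (SE, adjusted p = 4.99e-05). Its day 1 mean was 6.44, so the mutant hearts were highest at day 20. Tfrc, the transferrin receptor through which cells take up iron, read 11.05, 11.63 and 12.42 at day 20 and 9.95, 10.33 and 9.79 at day 49, a difference of -1.68 ± 0.23 (SE, adjusted p = 1.88e-04). Prkar2b, a regulatory subunit of protein kinase A, fell by 1.74, and the acyltransferase Agpat3 by 1.63. Fubp3, a single-strand nucleic acid-binding protein, read 7.04, 6.50 and 6.75 at day 20 and 4.02, 3.82 and 3.80 at day 49 on 1 probe set, a difference of -2.89 ± 0.53 (SE, adjusted p = 0.00219), whereas a brighter Fubp3 probe set differed by -0.21. The wild type differed by 0.17 on the dimmer probe set, though the genotypes' changes were not called different. Calls on a single probe set were common, though an uncalled probe set need not differ in direction. Among 1022 genes with more than 1 probe set and at least 1 call, 819 had a single called probe set, 190 had 2 or more called in 1 direction and 13 had calls in both.

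**Figure D4:**
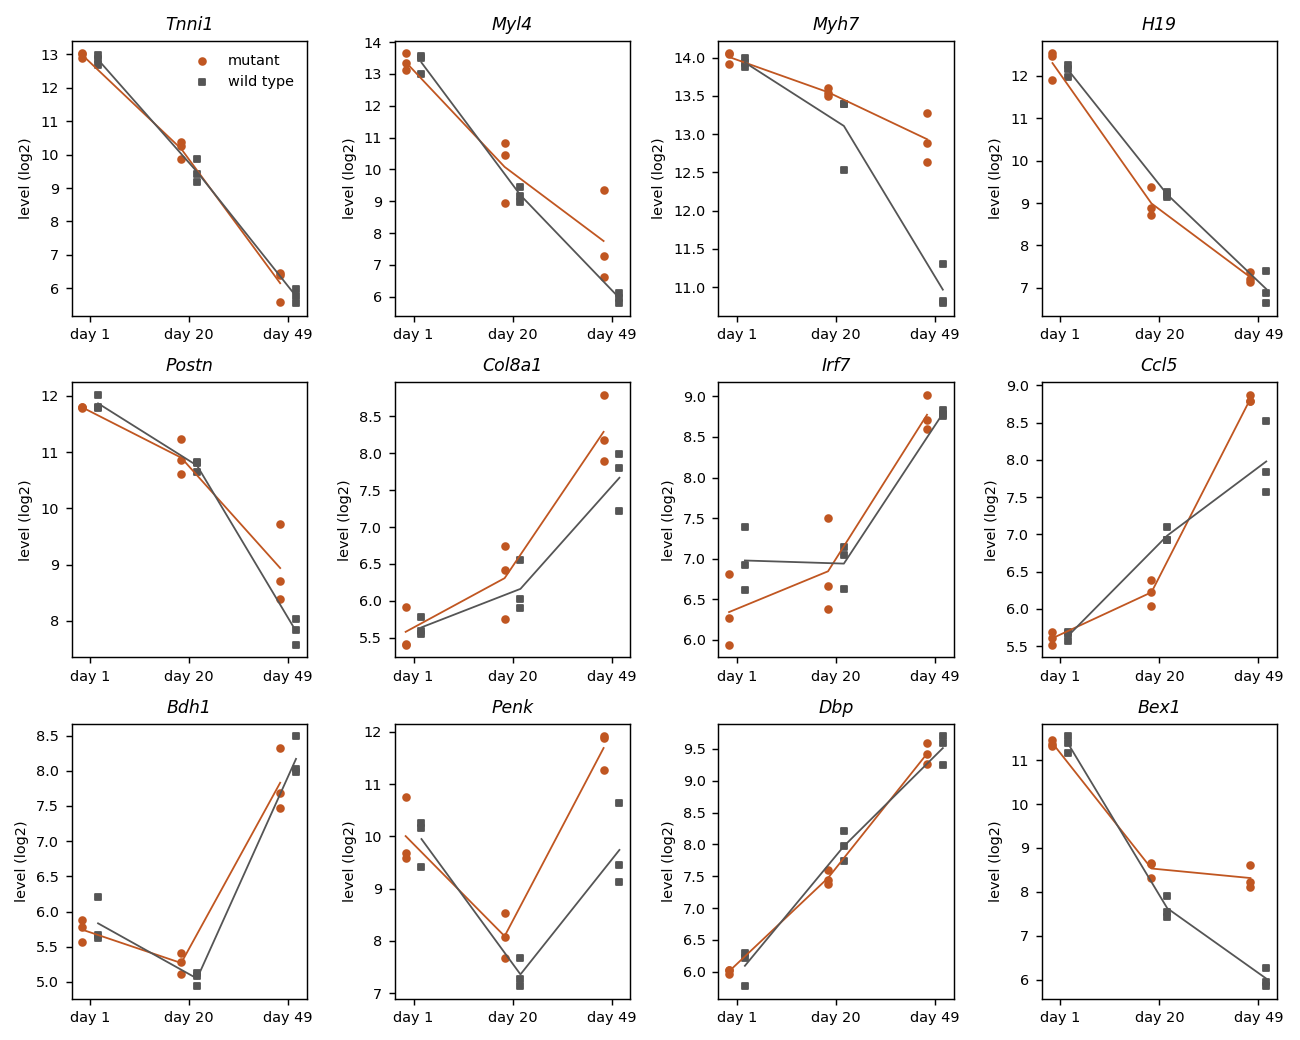
Log2 level of 12 genes in each mutant (orange circles) and wild-type (grey squares) heart at day 1, day 20 and day 49, with lines through the group means; the ages are evenly spaced and not to scale. Tnni1, H19 and Postn descend in both genotypes, Penk dips at day 20, and Bex1 and Myh7 stay higher in mutant than in wild-type hearts at day 49.

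The wild-type hearts of the same ages gave the same comparison in rats without the mutation. Their group means came from other arrays than the mutant means, but both tests used the same spread, pooled over all groups. The calls in mutant and wild-type hearts are therefore not independent of each other. In the wild type 2974 probe sets passed (9.58%), 1097 higher and 1877 lower. Of the mutant's rises 599 were also called in the wild type (49.2% of mutant and 54.6% of wild-type rises), and of its falls 1195 (61.8% and 63.7%). In opposite directions, 3 were called. The wild-type difference had the same sign for 1181 of the 1218 mutant rises and 1910 of the 1933 mutant falls. Across all probe sets the changes had a Pearson correlation of 0.80 and a Spearman correlation of 0.72, given as a description because probe sets are not independent and all day 49 arrays share the added controls. Tnni1, for example, differed by -3.72 in the wild type, Alox15 by -4.29, Ces1d by 3.15, Irf7 by 1.85 and Fbn2 by -2.38. By gene list, 27 of 38 interferon-stimulated genes, 11 of 24 macrophage markers and 16 of 24 antigen presentation genes were called higher in the wild type.

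The difference between the genotypes' changes was tested directly, as mutant change minus wild-type change. It passed for 6 probe sets of 31042 (0.0193%), 3 positive and 3 negative, and 926 had an unadjusted p below 0.05. Sctr, the secretin receptor, read 4.20, 4.74 and 4.83 at day 20 and 5.19, 5.67 and 5.45 at day 49 in mutant hearts, and 4.85, 4.67 and 4.77 at day 20 and 7.55, 7.55 and 7.17 at day 49 in wild-type hearts. It rose in both, by 0.85 and 2.66, and the difference was -1.81 ± 0.22 (SE, adjusted p = 0.00448). This call held without each of the 12 arrays in turn, with an adjusted p of at most 0.023. Ccl5 rose more in the mutant. The wild type read 6.93, 6.92 and 7.10 at day 20 and 7.57, 8.53 and 7.83 at day 49, a change of 0.99 against 2.60, and the difference was 1.60 ± 0.23 (SE, adjusted p = 0.0183). Bex1, a small brain-expressed X-linked protein, read 8.31, 8.63 and 8.65 at day 20 and 8.10, 8.22 and 8.62 at day 49 in mutant hearts, and 7.91, 7.43 and 7.53 at day 20 and 5.85, 6.27 and 5.95 at day 49 in wild-type hearts. It fell in the wild type, by 1.60, with a mutant difference of -0.22 that did not pass, and the difference between them was 1.39 ± 0.22 (SE, adjusted p = 0.0398). Prkaca, the catalytic alpha subunit of protein kinase A, rose by 1.12 in mutant hearts and fell by 0.72 in the wild type, a difference of 1.84 ± 0.30 (SE, adjusted p = 0.043). The remaining 2 were probe sets without a gene symbol, which fell in the mutant by 0.90 and 1.20 and had wild-type differences of 0.84 and 0.38. Apart from Sctr these calls depended on single hearts. Ccl5 lost its call without 8 of the 12 arrays, Bex1 without 9 and Prkaca without 11, with adjusted p up to 0.0772, 0.163 and 0.188.

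Some genes had unlike changes that did not pass this test. Myh7 read 13.39, 12.53 and 13.39 at day 20 and 11.30, 10.79 and 10.82 at day 49 in the wild type, a change of -2.14 (adjusted p = 2.59e-06), against -0.61 in the mutant, and the difference was 1.52 ± 0.28 (SE, adjusted p = 0.106). At day 49 the 3 mutant hearts lay between 12.63 and 13.28 and the 3 wild-type hearts between 10.79 and 11.30. Ano5, a membrane protein of muscle, changed by 0.23 in mutant hearts and by 2.48 in wild-type hearts, a difference of -2.25 ± 0.44 (SE, adjusted p = 0.184). Ephx2 changed by 2.26 and -1.37, a difference of 3.62 ± 0.78 (SE, adjusted p = 0.401). For Mx2 the wild-type day 49 hearts read 6.71, 6.57 and 3.46, so 1 of them stayed at the day 20 level, and the difference between genotypes was 1.88 ± 0.80 (SE, adjusted p = 1). The median standard error of this test was 0.17, against 0.12 for the mutant change alone.

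**Figure D5:**
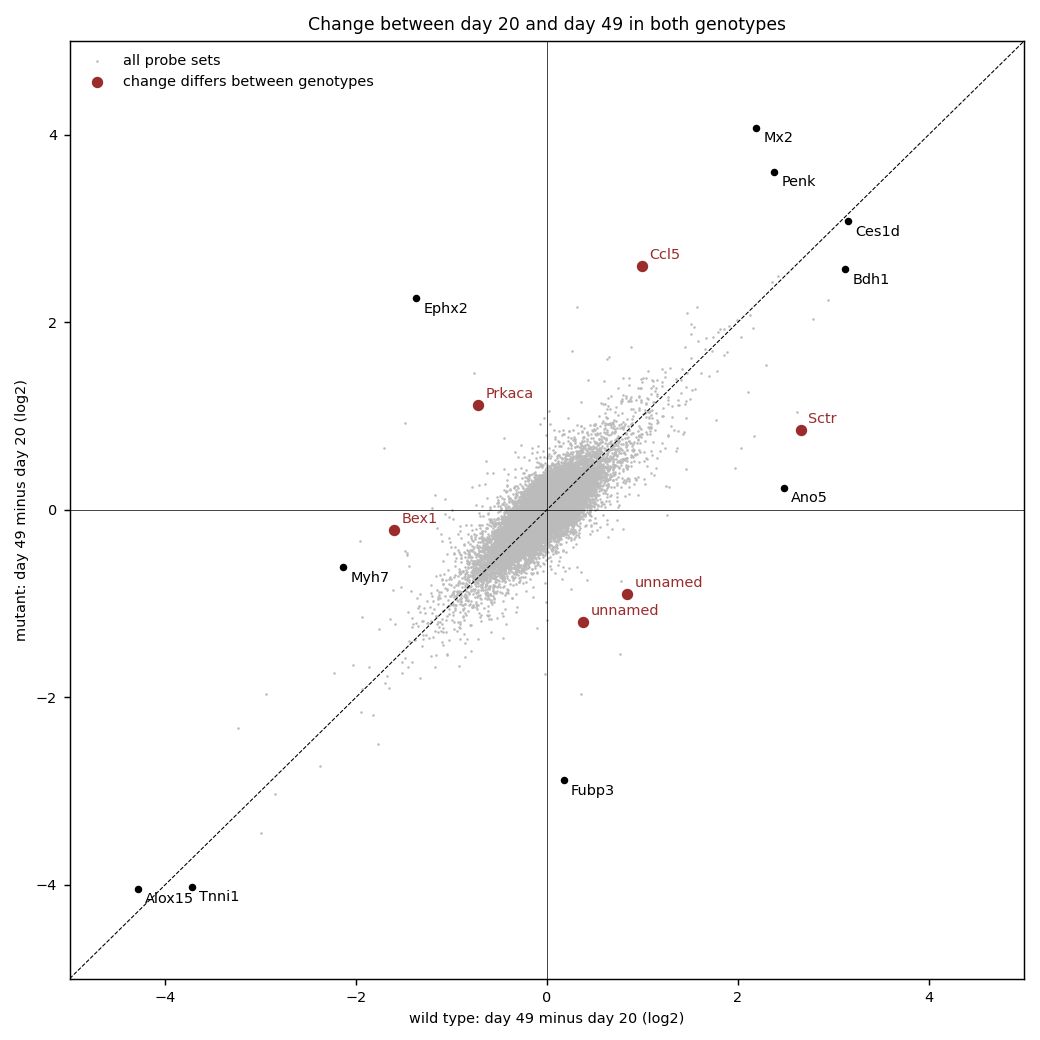
Each grey point is 1 probe set, placed by its log2 change from day 20 to day 49 in the wild type (horizontal) and in the mutant (vertical), with the dashed line marking equal change. Red points are the 6 probe sets whose change differed between genotypes by the test, and black points are other named genes. Across all probe sets the changes had a Pearson correlation of 0.80 and a Spearman correlation of 0.72. Distance from the dashed line was not measured.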

How the data were processed

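Total heart RNA was labelled with biotin and hybridised to rat expression arrays, 1 array per animal. The deposited values are log2 levels made by the authors with RMA (background correction and a robust average of perfect-match probes), per the labels and the design text. Normalization between arrays is not described there, and the array medians lay between 5.42 and 5.50. Of 31099 probe sets, 57 controls were left out, and the other 31042 were tested without a filter. Gene names come from the platform's annotation, in which 20826 probe sets had 1 symbol, 436 several and 9780 none.

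With R 4.3.3 and limma 3.58.1, 1 model of 6 group means was fitted to all 18 arrays, which left 12 residual degrees of freedom. Contrasts gave the mutant change, the wild-type change and their difference, with Benjamini-Hochberg adjustment over all probe sets and a threshold of 0.05. The fit was run on simulated data with 200 changed genes and independent noise. Those data held no effect of array or preparation, so the run does not bear on such effects here. Precision is limited by 3 arrays per group. The p-values rest on a spread between animals pooled over all 6 groups and moderated by limma. It is not the spread of the compared hearts alone.

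A gene on a list was represented by its brightest probe set. Named genes were the 20 largest called rises and the 20 largest called falls with 1 symbol and arrays that did not overlap, the 12 smallest p-values of the genotype difference, up to 8 called members of each list, and 9 genes always given (Rbm20, Ttn, Nppa, Nppb, Myh6, Myh7, Acta1, Ankrd1 and Xist). For the largest rises and falls, arrays without overlap were a condition of being named, so that trait adds no support for them. Other list members were named after their values were seen. The comparison and the lists were chosen with earlier results of these data known. Alternatives changed the arrays fitted, the scaling, the filter on dim probe sets, the spread model, array weights, covariates and the minimum difference, and left out arrays. Same-numbered replicates of the 2 ages did not deviate together (correlations of 0.06, 0.12 and -0.13), so the main fit has no block. No pair of arrays held identical values.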

Additional observations from a re-analysis of the deposited data

Results flagged for a closer look

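The change from day 20 to day 49 differed between genotypes, by limma's test of the difference itself, for 6 probe sets. The mutant change minus the wild-type change was -1.81 for Sctr, 1.60 for Ccl5, 1.39 for Bex1 and 1.84 for Prkaca. It was -1.74 for probe set 1391481_at and -1.58 for probe set 1371394_x_at, neither of which has a gene symbol. Groups of 3 arrays were too small for a search for outlying samples.

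Control probe sets outside the comparison carried signal on the day 49 arrays. Bacillus dap controls averaged 6.43 on the mutant day 49 arrays, against 3.22 on the mutant day 20 arrays. Age and this difference in preparation cannot be told apart.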

How the results depend on the processing

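The mutant comparison gave 1218 higher and 1933 lower calls. Tested against a minimum difference of 0.5 there were 60 and 56. Leaving out 1 mutant array gave 768 to 958 higher and 1079 to 1715 lower. Leaving out day 49 arrays 1 and 2 gave 619 and 1250, and leaving out the arrays with high Xist (day 20 array 2, day 49 arrays 2 and 3) gave 229 and 324; both were chosen after seeing the data and leave 1 day 49 array, which is assumed to vary like the other groups. The replicate block gave 1258 and 1925. The other alternatives stayed within 1.5 times the main counts. Calls were 38.7% higher in the main fit, 30.3% with arrays centred on their medians and 46.9% after quantile normalization.

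The 6 calls of the genotype difference became 10 with the 12 arrays of both ages alone, 12 with array weights, 2 with the hybridization controls as covariate, 7 with the replicate block and 1 to 8 when 1 array was left out. With the minimum difference limma called 0, and 33 had an unadjusted p below 0.05. Wild-type calls ranged from 1602 to 2591 when 1 array was left out, against 2974.

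Of 210 called named probe sets, none changed direction in any alternative. Uncalled genes did. Leaving out day 49 arrays 1 and 2 gave Acta1 0.090, the dimmer Myh7 probe set 0.018, Nppa 0.89 and Nppb 0.33, and the hybridization covariate gave Nppa 0.24 and Nppb 0.092. With 1 array left out, Nppa ranged from -0.70 to 0.10, Nppb from -0.26 to 0.067 and Ankrd1 from -0.0081 to 0.17. Detection calls were not used here, so how far dim probe sets lie above background is unknown.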
